A study of Citrus sinensis with 5 samples.

Results

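This account covers 283 of the 28766 genes listed for sweet orange (Citrus sinensis) leaves: abundant genes whose transcripts were moderately fewer in leaves of plants kept at pH 2.5 than in leaves of plants kept at pH 6. They were chosen by a rule on the authors' normalized values, which are read counts per gene multiplied by a factor for each library. With 10 added to each value, a gene was taken if its mean over all 5 libraries was at least 1500 before that addition and if its lowest pH 6 value, divided by its higher pH 2.5 value, was at least 1.4 and under 2.5. The same libraries and the same contrast therefore chose the genes, so the differences between treatments describe the 283 members, and counts of members called by a test over all genes are given as descriptions too.

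The seedlings were treated for 9 months. The 2 low pH libraries came from seedlings at pH 2.5 and the 3 control libraries from seedlings at pH 6, and each library mixed equal amounts of leaf sample from 4 seedlings, so the spread between libraries is a spread between mixtures of plants. The labels give no cultivar, rootstock or plant age, and no batch. Low pH replicates 1 and 2 held 20178803 and 21505928 gene counts, and the 3 controls held 17224516 to 18710578. Wherever single libraries are listed below, the 2 values at pH 2.5 and the 3 values at pH 6 follow the order of the replicate numbers.

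A leaf makes much of its messenger RNA from a small part of its genes, and in plants many of the most abundant leaf transcripts encode proteins of photosynthesis and of general metabolism. Protons in excess around the root harm root membranes and hinder the uptake of mineral cations, and plant cells keep their internal pH with proton pumps in the plasma membrane and in the vacuole membrane. Which such proteins the 283 genes encode was not analysed here, as 0 of the 28766 identifiers matched the gene table at hand. For the same reason the tissue was not checked against leaf marker genes. The members are given by abundance rank and position, with coordinates as the authors' files print them on a build that the sources used here do not name. No sequence is shown.

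Among genes of this abundance, those lower at pH 2.5 by the members' margin outnumbered those higher by the same margin on the authors' scale, and the balance flipped with library totals alone. The minimum mean of 1500 was met by 2702 genes. Of these, 283, or 10.5%, were members. A rule with the treatments exchanged, where the lower low pH value exceeded the highest control value by 1.4 to under 2.5 times, took 131 genes, or 4.85%. Of the genes taken by either rule, 68.4% were thus lower at pH 2.5. With library totals alone as the scale, the rule took 167 genes and its exchange 253, so 39.8% were lower, whereas trimmed-mean factors gave 299 and 137 and median ratio factors 308 and 128. Beyond these limits, 27 genes were lower and 12 higher by at least 2.5 times. Another 725 genes were lower and 498 higher without overlap between treatments by under 1.4 times, and the libraries of both treatments overlapped in 1026 genes. All 283 members lie without overlap by the rule itself, and this direction without overlap held for 38.3% of the 2702 abundant genes and 25.4% of all genes tested, so it distinguishes the members only through its size. The ratio of lowest control to higher low pH value had a median of 1.61 over the members. It was under 1.5 in 82 members, at least 1.5 and under 2 in 172, and at least 2 in 29.

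The rule's limits cut through a continuous range. The member nearest the lower limit had a ratio of 1.4007 and the gene just outside it 1.3999, and 123 abundant genes had ratios from 1.3 to under 1.4. At the upper limit the nearest member had a ratio of 2.46 and the nearest gene outside it 2.53. The least abundant member averaged 1500.27 and the nearest gene below the minimum with a ratio within the limits averaged 1493. Below that minimum, 739 further genes had ratios within the same limits.

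**Figure D1:**
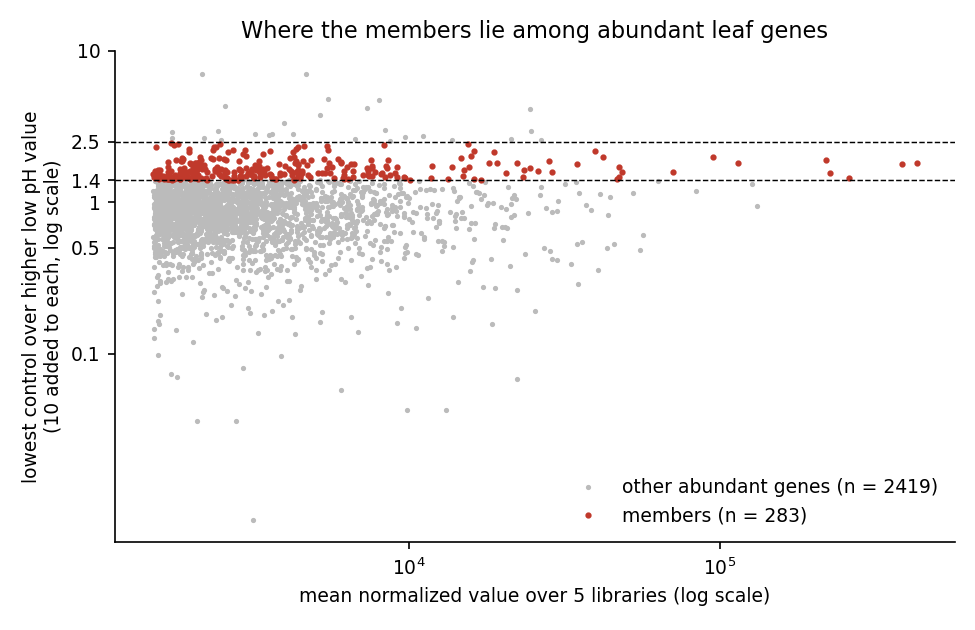
Each point is 1 of 2702 abundant genes, with its mean normalized value over 5 libraries on the x axis and the lowest control value over the higher low pH value, with 10 added to each, on the y axis, both on log scales. Dashed lines mark the limits of 1.4 and 2.5, and the 283 members between them make up a larger part of the genes at the right, where means exceed 30000.

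The members were a larger part of the genes at the top of the abundance range. They made up 134 of 1596 genes with means from 1500 to under 3000, or 8.40%, and 109 of 930 genes from 3000 to under 10000, or 11.7%. Of the 138 genes from 10000 to under 30000 they made up 25, or 18.1%, and of the 38 genes of at least 30000 they made up 15, or 39.5%. In the same classes of abundance the exchanged rule took 4.32%, 5.38%, 6.52% and 7.89% of genes. The 5 genes with the highest means over all genes listed were all members, as were 14 of the top 30 and 28 of the top 100. Of the top 100, 11 met the exchanged rule. Means over 5 libraries weigh the 3 controls more than the 2 low pH libraries, which favours genes high in controls, and 10 of the 283 members would have a mean under 1500 with both treatments weighted equally.

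The members together held a smaller part of the leaf's gene counts at pH 2.5. Their summed share was 12.5% and 9.60% at pH 2.5, and 22.3%, 23.0% and 20.9% at pH 6. Both low pH libraries thus lay below every control library, by 8.38 points between the nearest. The mean was 11.1% ± 2.04 (SD, n = 2) at pH 2.5 and 22.1% ± 1.09 (SD, n = 3) at pH 6, a difference of -11.0 points, low pH minus control. Wilson 95% intervals of the 5 shares, which cover counting error only, were 0.0249 to 0.0392 points wide. In whole leaves, fewer cells of a type and less RNA per cell cannot be told apart.

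The 5 most abundant members and the other 278 carried nearly equal parts of that difference, -5.44 and -5.57 points. At low pH the 5 most abundant members held 4.58% ± 1.26 (SD, n = 2), against 10.02% ± 1.10 (SD, n = 3) in controls. The other 278 members held 6.47% ± 0.783 (SD, n = 2) at pH 2.5 and 12.0% ± 0.190 (SD, n = 3) at pH 6. Beyond the 30 most abundant members, the remaining 253 held 3.43% ± 0.389 (SD, n = 2) at pH 2.5 and 6.27% ± 0.0769 (SD, n = 3) at pH 6. The share at low pH was 0.457 times that in controls for the first 5 members, 0.537 times for the other 278 and 0.547 times for the last 253. Over the same libraries, the 131 genes of the exchanged rule held 6.03% ± 0.791 (SD, n = 2) at pH 2.5 and 2.51% ± 0.0590 (SD, n = 3) at pH 6, a difference of 3.52 points, against -11.0 points for the members.

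**Figure D2:**
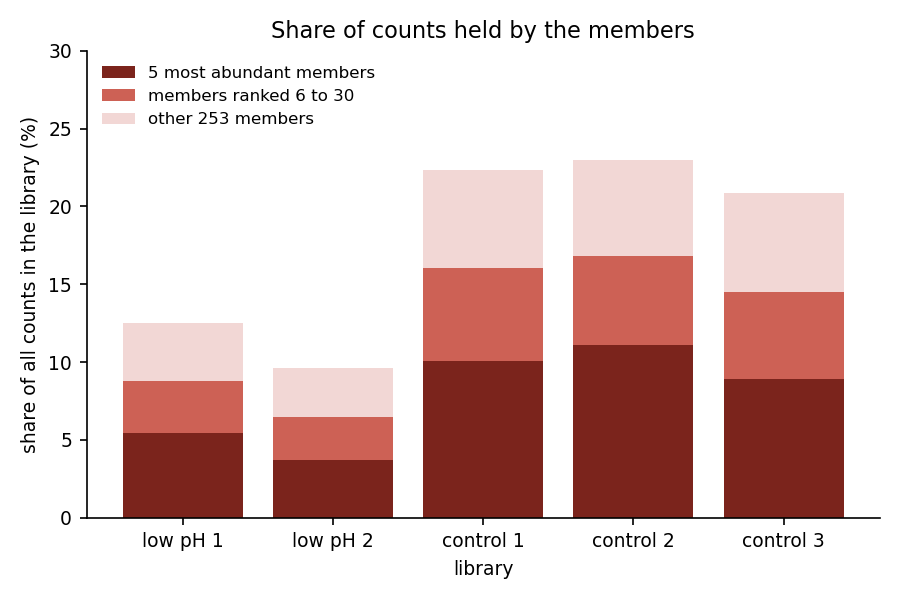
Bars give the share of all gene counts, in percent, held by the members in each of the 5 libraries, divided into the 5 most abundant members, ranks 6 to 30 and the other 253. The low pH bars end at 12.5% and 9.60% and the control bars at 22.3%, 23.0% and 20.9%, and each of the 3 parts is smaller in both low pH libraries than in every control.

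The median normalized value over the 283 members was 2132 and 1809 at pH 2.5, and 3848, 4006 and 3952 at pH 6. Over the 2419 other abundant genes the median was 2543 and 2541 in the low pH libraries and 2615, 2445 and 2438 in the controls. The medians of the other genes thus overlapped between treatments on the authors' scale. As a share of raw counts, these other genes held more at low pH without overlap. They held 56.7% and 58.6% at pH 2.5, and 51.4%, 49.9% and 51.2% at pH 6. Per length, on the FPKM scale, the members' median was 60.1 and 50.1 at pH 2.5 and 109, 109 and 107 in the controls. The rule did not read FPKM, which comes from the same libraries. It is not simply the count divided by length and scaled by 1 factor per library. On FPKM, 277 of the 283 members kept low pH libraries below all controls. The same held for 36.7% of the 2702 abundant genes and 25.7% of all genes tested. Nothing is read from the count of 277, since the members were chosen for the same order in the same libraries. Some members differed between the measures, and those ranked 12th, 18th and 19th overlapped between treatments on FPKM. The 12th had FPKM of 448 and 435 at pH 2.5, and 682, 429 and 566 at pH 6. For the 19th the low pH and control means were 494.6 and 517.2 on FPKM, but 15909 and 30245 as normalized values. Why the measures differed was not tested. The ratio of the control mean to the low pH mean of normalized values had a median of 1.98. It was under 2 in 147 members, from 2 to under 3 in 114 and at least 3 in 22.

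The most abundant member, orange1.1t01308, was also the gene with the highest mean of all genes listed. Its locus spans 22188744 to 22192527 of an unplaced sequence, plus strand, and it has a model of 3784 bases, as long as its locus. Its normalized value was 256871 and 148183 at pH 2.5, and 511823, 764551 and 465672 at pH 6. Both low pH libraries were well below the controls, and the libraries within each treatment also differed widely, with control replicate 2 the highest. The mean was 202527 ± 76854 (SD, n = 2) at pH 2.5 and 580682 ± 160899 (SD, n = 3) at pH 6. This gene alone held 1.45% and 0.856% of all counts at pH 2.5, and 2.47%, 3.87% and 2.41% in the controls.

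The member second in abundance followed the first closely from library to library. It lies at 25301569 to 25305984 on chromosome 7, plus strand, again with a model as long as its locus, of 4416 bases. Its normalized value was 237563 and 142338 at pH 2.5, and 461182, 667740 and 423247 at pH 6. The ratio of the first gene's value to the second's was 1.08 and 1.04 in the low pH libraries and 1.11, 1.14 and 1.10 in the controls. Their order of libraries was the same, with control replicate 2 highest and low pH replicate 2 lowest. The sources used here do not say how reads that match more than 1 locus were counted, and the sequences of these loci were not compared, so the values of both genes are uncertain to that extent.

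The members ranked 3 to 5 followed another order of libraries, with control replicate 1 the highest. The third, at 31599211 to 31602187 on chromosome 7, minus strand, had normalized values of 182185 and 128295 at pH 2.5, and 433091, 262912 and 294587 at pH 6. The fourth, at 18696525 to 18698451 on chromosome 6, minus strand, had 160651 and 111937 at low pH, and 337236, 250132 and 267678 in controls. These genes are set apart from the first pair by control replicate 2, which was their lowest control. The fifth, at 7009796 to 7012519 on chromosome 8, plus strand, had 131068 and 107460 at low pH, and 335209, 248740 and 272695 in controls. Per length the order among the 5 differed from that by counts. On the FPKM scale the fourth was the highest of all members, at 5738 ± 1459 (SD, n = 2) at pH 2.5 and 12244 ± 1898 (SD, n = 3) at pH 6, and the first stood at 1999 ± 784 (SD, n = 2) at pH 2.5 and 5867 ± 1994 (SD, n = 3) at pH 6.

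**Figure D3:**
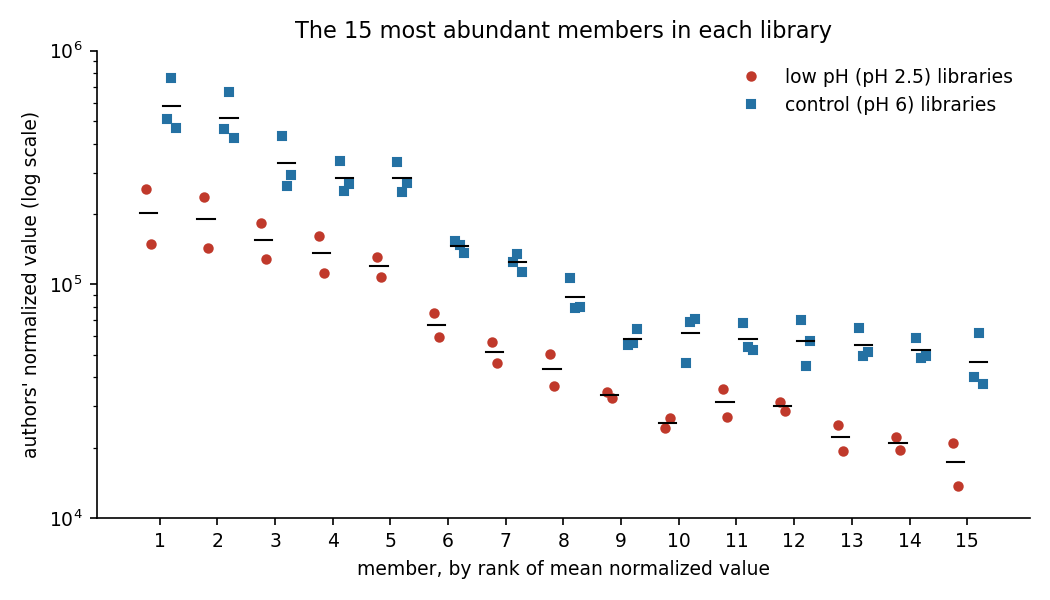
The authors' normalized value of the 15 most abundant members is shown on a log scale, with 1 point per library (circles for 2 low pH libraries, squares for 3 controls) and a bar at each treatment's mean. Both low pH values lie below all 3 control values for each member, which the rule, applied to these same values, fixes in advance.

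In the 15 most abundant members, control replicate 1 was the highest control for 9, control replicate 2 for 4 and control replicate 3 for 2. Control replicate 1 was also the highest control in 54.8% of all members and 55.6% of the other abundant genes, so this order is not particular to them. Low pH replicate 2 was the lower of the low pH libraries in 14 of these 15. Ranks 6 and 7 had much closer controls than the first 5. Rank 6, at 28295903 to 28310505 on chromosome 3, plus strand, had 75262 and 59198 at low pH, and 153962, 147084 and 135631 in controls. Rank 7, at 18087730 to 18094926 on chromosome 4, plus strand, had 56799 and 45925 at low pH, and 124382, 134795 and 113409 in controls. Its locus overlaps 1 other locus, on the same strand, so it may hold reads of both.

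The widest gap between treatments among the members, as the rule measures it, was that of Cs6g21370, at 2.46. This gene lies at 20526740 to 20532519 on chromosome 6, plus strand, with a model of 3014 bases, and was 260th in abundance among the members. Its normalized value was 870 and 558 at pH 2.5, and 2427, 2152 and 2550 at pH 6. The controls lay close together and far above both low pH libraries. The mean was 714 ± 221 (SD, n = 2) at pH 2.5 and 2376 ± 203 (SD, n = 3) at pH 6. Its locus overlaps 1 other locus, so the same doubt about shared reads holds. The next in this order, at 1210600 to 1213762 on chromosome 2, minus strand, had a ratio of 2.43 and was 32nd in abundance. Its values were 8013 and 3702 at low pH, and 23432, 22332 and 19503 in controls, so replicates 1 and 2 at low pH lay farther apart than the controls did.

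The low pH libraries were not equal for these genes. Low pH replicate 2 was the lower in 235 of 283 members, or 83.0%, against 1212 of the 2419 other abundant genes, or 50.1%. The value in low pH replicate 1 over that in replicate 2, with 10 added to each, had a median of 1.197 in members and 1.001 in the other abundant genes. In the 131 genes of the exchanged rule the order was the opposite, and low pH replicate 2 was the higher in 104 of them, with a median ratio of 0.881. Low pH replicate 2 thus stood farther from the controls than replicate 1 in most genes of either set. With library totals alone it was the lower in 229 of the 283 members and 46.0% of the other abundant genes, and the higher in 106 of the 131 genes. It also had the largest total count and a trimmed-mean scaling factor of 1.10, against 1.07 in low pH replicate 1 and 0.926, 0.946 and 0.964 in control replicates 1, 2 and 3, and the part of these in the result was not tested.

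**Figure D4:**
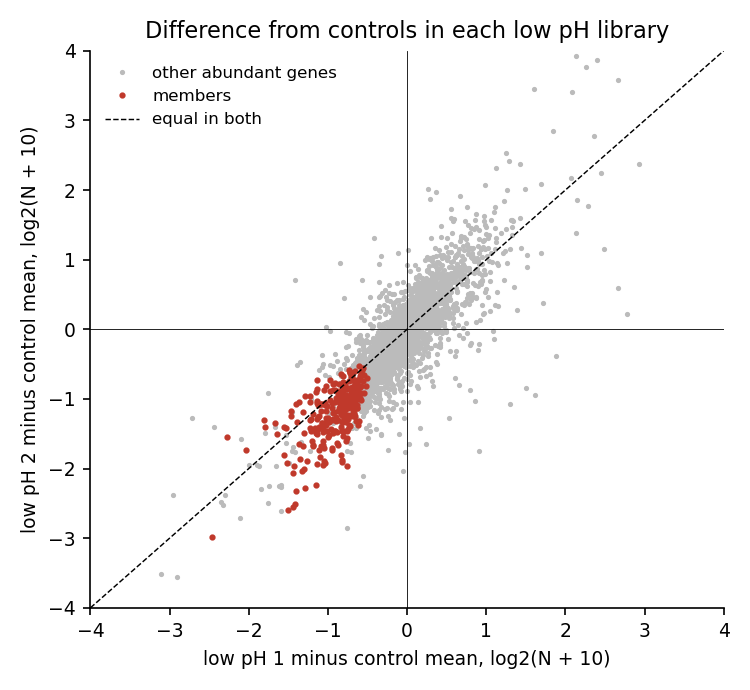
For each abundant gene the difference from the mean of 3 controls, on the log2(N + 10) scale where N is the normalized value, is given for low pH replicate 1 on the x axis and replicate 2 on the y axis. Most of the members lie below the dashed line of equal values, since low pH replicate 2 was the lower in 235 of 283, and 3 members and 6 other genes fall outside the axes.

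Applying the rule to 4 libraries leaves the fifth as a value the choice did not use, although it shares the treatment and the authors' scaling with the others. The libraries it is set against, those of the other treatment, did choose the genes, so the shares below give no independent support. Chosen without low pH replicate 2, the list held 346 genes, 276 of them among the 283 members. In the library left out, 341 of the 346, or 98.6%, lay below all 3 controls, and 85.3% did so by a ratio of at least 1.4. Of the 2359 other genes of that abundance, 43.7% lay below all controls in that library. Chosen without low pH replicate 1, the list was much longer, at 509 genes, and held 233 of the members. In low pH replicate 1, 472 of the 509, or 92.7%, lay below all controls, but only 47.9% by a ratio of at least 1.4, where 36.1% of the other 2219 abundant genes lay below all controls.

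Leaving out a control gave shorter lists than leaving out a low pH library. The rule takes the higher of 2 low pH values and the lowest of 3 control values, so its form bears on these lengths. How much of the difference in length comes from that form was not tested. Without control replicates 1, 2 and 3 the lists held 296, 305 and 324 genes, of which 261, 268 and 257 were among the 283 members. The control left out exceeded both low pH libraries in 97.3%, 99.7% and 99.7% of those genes, in that order, and did so by a ratio of at least 1.4 in 88.5%, 87.9% and 79.3%. Among the other abundant genes the control left out exceeded both low pH libraries in 46.3%, 39.7% and 37.6%. These shares are descriptions of single libraries. The other abundant genes are those the rule had passed over, so their shares are not what chance would give, and the libraries of the other treatment enter both the choice and the comparison.

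Most members varied little among the controls and 10 varied widely, a share near that in the other abundant genes. The highest control over the lowest, with 10 added to each, had a median of 1.22 in members and 1.22 in the other abundant genes. The rule compares the extremes of both treatments, which favours close values, so this is a description. In 10 members, or 3.53%, the ratio was at least 2, against 4.13% of the 2419 other abundant genes. Of these 10 members, 8 were highest in control replicate 3 and 8 were lowest in control replicate 1. The member ranked 82nd, at 18107956 to 18109439 on chromosome 4, plus strand, had normalized values of 103 and 63.6 at pH 2.5, and 259, 723 and 26073 at pH 6. Its locus overlaps 1 other locus. The member ranked 139th, at 13382485 to 13385000 on chromosome 4, plus strand, had 152 and 67.6 at low pH, and 254, 3197 and 12360 in controls. These 2 were chosen after their values were seen. The control mean of the member ranked 82nd rests on control replicate 3, and that of the member ranked 139th on control replicates 2 and 3. Of the 10, 7 would have a mean under 1500 without control replicate 3, and the member that carries the label newGene is among the 10. Without the 10, the summed share of the members was 12.4% and 9.56% at pH 2.5, and 22.2%, 22.8% and 20.5% in the controls, so they carried little of the total. At low pH the higher library was at least 2 times the lower in 9 members, or 3.18%, against 3.43% of the other abundant genes.

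Fitted over all 16946 genes tested, which include all 283 members, log2 fold changes (low pH minus control, edgeR with trimmed-mean factors) ran from -6.78 to -0.58 over the members. Their quartiles were -1.24 and -0.86 and their median was -0.999, beside a median of 0.02 over all genes tested. The 2 lowest, at -6.78 and -5.62, were the uneven members ranked 82nd and 139th. The size depended on the scaling. With library totals alone the median over all genes tested was 0.23 and that over the members -0.80. With trimmed-mean, median ratio or total scaling all 283 members were below 0, a direction that the choice of the members fixes. Across the members, which are not replicates, Spearman's rho between mean normalized value and log2 fold change was -0.16 (n = 283 genes, all sharing the 5 libraries), and between model length and log2 fold change 0.13.

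Of the 283 members, 270 were called lower at low pH by edgeR (quasi-likelihood test, Benjamini-Hochberg adjusted p under 0.05), where 8.30% of all genes tested were called lower. The rule used this contrast, so nothing is read from that count. By DESeq2 the count was 282, where 13.2% of genes with an adjusted p were called lower. Of the 13 members not called by edgeR, 4 were the 4 most abundant, 6 were among the 10 with uneven controls, and 3 were others. With 1 library dropped, edgeR called fewer of them: 216 when it was low pH replicate 1, 25 when it was low pH replicate 2, and 139, 39 and 4 when it was control replicate 1, 2 or 3. Over all genes tested the number called lower was 1084, 187, 609, 195 and 49 in the same order.

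Gene model length, which the rule did not read, was less often extreme among the members than among other abundant genes. With the 2702 abundant genes cut into 4 classes of nearly equal number by model length, 58 members lay in the shortest class, 95 and 81 in the classes between, and 49 in the longest. These are 20.5%, 33.6%, 28.6% and 17.3% of the members, against 25.5%, 24.0%, 24.6% and 25.9% of the 2419 other abundant genes. The classes met at 1771, 2516 and 3516 bases. The 131 genes of the exchanged rule were placed differently, with 38.2% in the shortest class and 9.92% in the longest. Median model length was 2397 bases in the members, 2531 in the other abundant genes and 2073 in the genes of the exchanged rule. Longer models collect more reads per transcript, so a minimum on normalized reads, which are not divided by length, admits long models more readily in all of these sets.

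A locus as long as its model, with no added intron length, was found in 27 of 283 members, or 9.54%, against 133 of the 2419 other abundant genes, or 5.50%. Among all genes listed it was 20.8%. The members of this kind included the 2 most abundant. In the other 256 members the locus exceeded the model by 80 to 298032 bases, with a median of 2164 bases, against 2341 in the other abundant genes. No test over genes was made of these differences.

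**Figure D5:**
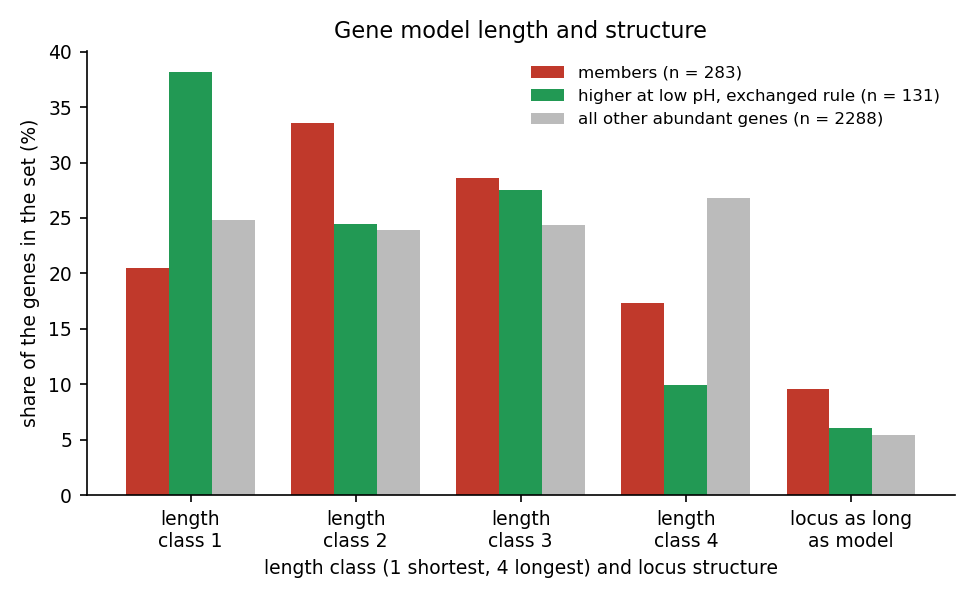
Bars give the percentage of each set of abundant genes that falls in each of 4 classes of model length, and, at the right, the percentage whose locus is as long as the model, for the 283 members, the 131 genes of the exchanged rule and the 2288 remaining abundant genes. Members are fewest in class 4, the longest, at 17.3% and most in class 2 at 33.6%, while 38.2% of the genes of the exchanged rule are in the shortest.

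Members lay on all 9 numbered chromosomes and on unplaced sequences. Unplaced sequences held 47 members, or 16.6%, against 12.2% of the other abundant genes, and chromosome 7 held the most of any numbered chromosome, 39 or 13.8%, against 12.2%. Chromosome 4 held the fewest, 17 or 6.01%, against 8.89% of the other abundant genes. The plus strand carried 145 members and the minus strand 138. The loci of 58 members, or 20.5%, overlapped another listed locus, against 17.6% of the other abundant genes, and 49 of these 58 overlapped a locus on the opposite strand. The reads of those 58 may be divided with, or shared by, the overlapping genes.

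Members were about as common beside other members as beside other abundant genes. Among the 361 pairs of adjacent loci that were both abundant, 4 held 2 members and 63 held 1. Of the 71 abundant neighbours of members, 8, or 11.3%, were themselves members, and of the 651 abundant neighbours of other abundant genes, 63, or 9.68%, were members. The closest of the 4 pairs holds the third most abundant member and, 2928 bases away on the same strand of chromosome 7, the member ranked 256th. That neighbour lies from 31605116 to 31612320 and averaged 1283 at low pH and 2051 in controls. Another pair, on chromosome 3, holds the members ranked 14th and 251st, 44383 bases apart, with ratios of 2.18 and 2.42. The 14th had normalized values of 22247 and 19492 at pH 2.5, and 58672, 48509 and 49410 at pH 6. The 251st had 949 and 439 at low pH, and 2516, 2811 and 2310 in controls. Both genes of this pair thus stood in the upper part of the members' range of ratios, and their levels differed widely.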

How the data were processed

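Leaf RNA was sequenced in 2 low pH and 3 control libraries, each from 3 µg of RNA of 4 mixed seedlings, per the labels' protocols. TopHat2, Cufflinks and DESeq are named in the submitters' processing notes. The sources used here do not give the genome build, the annotation, the handling of reads with several matches or the use of strand. Per the file headers, the authors deposited for each of 28766 genes a read count (taken as raw, since it holds whole numbers), an FPKM value and a normalized signal, which equals the count times nearly 1 factor per library (0.877 and 0.805 at low pH, 1.11, 1.12 and 1.12 in controls).

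The members, their rule and the comparisons were chosen with earlier results of these data known. Replicates were numbered in sample order within a treatment. The labels call them biological replicates. Shares use raw totals of 17224516 to 21505928 counts, with Wilson 95% intervals. All genes were fitted with edgeR 4.0.16 in R 4.3.3 (counts, trimmed-mean factors, filterByExpr, quasi-likelihood test, 2-sided, Benjamini-Hochberg), checked on simulated counts. DESeq2 1.42.0 and limma 3.58.1 (voom, and log2 of FPKM plus 1 for genes with a mean FPKM of at least 1) served as alternatives, with other scalings, filters, limits of the rule and libraries left out. Identifiers were printed for the most abundant member and, among the others, the one with the largest ratio. Further members were described by rank and position, after their values were seen. The RefSeq table of assembly DVS_A1.0 held 29331 genes. Its coordinates were not used, because the builds were not shown to match.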

Additional observations from a re-analysis of the deposited data

How the results depend on the processing

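The count of 283 members depended on the limits and on the scaling. It was 167 with values scaled by library totals alone (154 of them members), where 253 genes met the rule with the treatments exchanged, 433 with a minimum mean of 750 and 149 with a minimum of 3000. It stayed within 1.5 times under the other constants, scalings and ratio limits tried, at 201 to 406. Leaving out 1 library gave 296 to 509 genes. The number of members called lower was 244 to 282 under the other tests, scalings and filter, and 4 to 216 when 1 library was left out. Over all genes tested the number called lower moved with it, at 1406 as reported, 901 to 2248 under those alternatives and 49 to 1084 with 1 library left out. With a single low pH library left, that library was assumed to vary like the controls. The median log2 fold change of the members was -0.80 with library totals alone, -1.15 to -0.86 with 1 library left out, and -1.01 to -0.98 under the other alternatives. The difference in summed share, low pH minus control, was -13.2 points with trimmed-mean library sizes and -5.24 points when the 30 most abundant genes were left out of members and totals alike. With 1 library left out it was -12.5 to -9.57 points. The median log2 fold change and the difference in share kept their sign under these alternatives, as the choice of members fixes it, while the balance of genes taken by the rule and by its exchange flipped with library totals alone. Beyond the tests and scalings named, the cause of these shifts was not tested. No paired analysis was possible because the labels give no replicate numbers, and those used here follow sample order and pair nothing. The lowest count of a member in any library was 79. Counting error was not separated from the spread between libraries.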
